A study of Mus musculus with 6 samples.

Results

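Histone genes were followed in mouse embryonic stem (ES) cells that had been separated by the fluorescence of a 2C::tomato reporter. Every probeset was taken whose annotated symbol began with Hist1h, Hist2h, Hist3h, Hist4h, H1f, H2ac, H2bc, H2af, H3c, H3f or H4c, also where a probeset listed several symbols. This gave 63 of the 35556 probesets on the array. They listed 69 different histone genes, all of which matched a RefSeq gene. Of the 63, 31 listed 1 symbol and 32 listed several. By histone type, 8 probesets were H1, 6 were H2A, 16 were H2B, 20 were H3 and 12 were H4, and 1 listed both H2bc6 and H1f4. A probeset that listed several types was otherwise placed by the type of most of its symbols.

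The study measured total RNA in 3 arrays of 2C::tomato+ cells and 3 arrays of 2C::tomato- cells, numbered 1 to 3 in both groups. The titles mark all 6 as WT. The protocol names vehicle or 4OHT treatment to delete Kdm1a, without stating which of these the 6 samples received, so both groups are described here by the reporter alone. All cells grew on gelatin, in a medium named ES-KOSR, and were sorted by FACS. In published work the reporter is driven by the promoter of an endogenous retrovirus, MERVL, that is active in the early cleavage embryo, so the groups are defined by that promoter's activity. The labels give no clone. Nor do they say that the 3 samples in a group are separate cultures, so a p-value here reflects the spread of these arrays alone, part of which may be technical. In sorted bulk cells, fewer cells of a type and less RNA per cell cannot be told apart.

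Histones package DNA into nucleosomes, with H2A, H2B, H3 and H4 in the core and H1 on the linker. Most are encoded by replication-dependent genes that lie in clusters, are transcribed mainly in S phase and give mRNAs that end in a stem-loop and not in a poly(A) tail. Replacement variants such as H3.3 are made throughout the cell cycle from genes outside those clusters, with introns and poly(A) tails, and other variants are largely restricted to testis or oocyte. The RNA was labelled with a whole-transcript kit, which primes at random along transcripts and so can also read messages without a poly(A) tail.

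All 7 ES cell markers examined, Pou5f1 and Nanog among them, lay between 10.24 and 13.54 on the log2 scale in every array. Of them, 2 were higher and 5 lower, with a median log2 difference of -0.08. Esrrb, at -0.36, was lower without overlap, against 6.28% of all probesets. In positive array 2 the list mean was 11.53, against 11.85 to 12.09 in the other arrays. Of 16 genes of the 2-cell-like state, 8 had a probeset with 1 symbol. All 8 were higher in every positive array than in any negative array, against 5.46% of all probesets. Their median log2 difference was 3.28. This list draws on work with this reporter, so its direction is not independent evidence. Its mean was 5.56, 5.6 and 5.77 in negative arrays 1 to 3 and 8.03, 10.99 and 7.0 in positive arrays 1 to 3, so positive array 2 stood apart from the other positive arrays. All 6 germ cell markers were higher on average, with a median log2 difference of 1.06. Of them, 3 were higher without overlap, against 5.46% of all probesets, and 0 passed the test. Only Ddx4 was not higher in every pair, being lower in pair 3. The list had array means of 7.1 to 7.62 in negative and 7.75 to 9.08 in positive cells. The 10 fibroblast markers had array means of 7.58 to 8.13 in negative and 7.23 to 8.04 in positive cells, with 4 genes higher and 6 lower. Col1a1 was lower without overlap, at -0.41, and Thy1 higher without overlap, at 0.55. Col1a2, Col3a1, Acta2 and Tagln were lower in every pair, at -0.37, -0.33, -1.16 and -1.13, each with overlap between the groups. Lum stayed between 3.73 and 3.85, and Fn1 between 12.15 and 12.44. The 7 primitive endoderm markers had a median log2 difference of -0.34, with pair medians of -0.53, 0.09 and -0.54. Of them, 1 was higher and 6 were lower, and Foxa2, at -0.22, was lower without overlap. Their array means were 7.81 to 7.98 in negative and 7.28 to 7.82 in positive cells. The part of these cell types in the histone values was not tested.

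The promoters of 3 genes are given first, as examples. Of H2bc4, H4c9 and H1f2, the genes with the largest differences below, only H1f2 is shown. H2bc4 had no window in the RefSeq table. Sequences are from RefSeq GRCm38.p6 and run 5′ to 3′ up to the base before the annotated start. H1f2 is shown as a linker histone gene whose log2 difference was nearly equal in the 3 pairs, and H2bc8 as a core histone gene whose values turned on 1 array. The H2ac1 stretch holds most of the shared promoter of a testis-type H2A and H2B pair. Capitals mark the motif CCAAT, the TATA-box letters TATAAA, the H1-box letters AAACACA and the octamer ATTTGCAT, which was also searched on the other strand, as were the rest. No matches overlap in these 3 stretches.
H1f2 chr13:23738557-23738806 (+): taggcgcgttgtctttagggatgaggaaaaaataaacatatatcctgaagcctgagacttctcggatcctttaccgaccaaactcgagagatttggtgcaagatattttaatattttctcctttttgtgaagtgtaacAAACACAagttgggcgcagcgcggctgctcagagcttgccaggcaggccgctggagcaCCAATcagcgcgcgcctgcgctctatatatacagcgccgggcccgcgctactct
H2bc8 chr13:23571221-23571399 (+): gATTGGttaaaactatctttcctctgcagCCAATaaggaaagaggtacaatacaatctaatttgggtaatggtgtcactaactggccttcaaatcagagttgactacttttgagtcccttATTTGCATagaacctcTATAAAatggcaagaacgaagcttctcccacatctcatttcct
H2ac1 chr13:23934187-23934436 (+): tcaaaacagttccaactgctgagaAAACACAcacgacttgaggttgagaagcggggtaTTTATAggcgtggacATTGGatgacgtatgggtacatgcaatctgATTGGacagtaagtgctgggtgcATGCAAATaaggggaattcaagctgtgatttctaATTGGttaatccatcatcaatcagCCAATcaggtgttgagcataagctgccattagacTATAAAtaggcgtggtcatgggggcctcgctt

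The H2bc8 stretch covers the bases between its start and that of H2ac8 on the other strand, 180 bases apart. The starts of H2ac1 and H2bc1, which also point away from each other, lie 281 bases apart. Of the 69 genes, 63 had a window of 300 bases in the RefSeq table, 250 before and 50 after the start. The octamer stood in 7 of 15 H2B windows and in 6 of 17 H2A windows, against 1.74% of all 32851 windows. These windows are those of cluster genes together with H2ac1 and H2bc1. Divergent pairs such as H2ac1 and H2bc1, or H2bc8 and H2ac8, share bases, so the H2A and H2B counts are not independent. The octamer was in none of the 5 H1, 10 H3 or 11 H4 windows of cluster genes. AAACACA stood in 4 of the 5 H1 windows, against 7.18% of all windows, in 2 H2A and 2 H2B windows, and in no H3 or H4 window. CCAAT or its complement was in every H1, H2A, H2B and H3 window counted but in 3 of the 11 H4 windows, against 37.4% of all. TATAAA or its complement was in 40.0% of H3 and 80.0% of H1 windows, with the other types between, against 13.6% of all. The types thus differ in the letters of their promoters; a match is a stretch of letters and not a measured binding site.

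No histone type was separated by the reporter. Differences are given as positive minus negative, on the log2 scale of the deposited values, with the standard error (SE) of the limma fit. Of the 63 probesets, 0 passed limma's adjusted p of 0.05, the smallest being 0.875, and the background was 0.0% of the 35556 probesets tested. At an unadjusted p under 0.05 there were also 0 histone probesets, against 5.47% of all probesets, 3.3% higher and 2.17% lower. With array number as a replicate block, 0 passed after adjustment (background 0.0%) and 1 probeset, H1f2, was under 0.05 before adjustment, against 10.1% of all. The histone probesets therefore held no larger share of low p-values than the array as a whole.

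The sizes of the differences depended on how many genes a probeset listed. Over all, the log2 difference lay within 0.1 of 0 in 41 of 63 histone probesets, or 65.1%, against 40.5% of all probesets, and within 0.25 in 56, or 88.9%, against 77.2%. The median size was 0.07 for histones and 0.13 for all probesets. Among the 31 probesets with 1 symbol, though, 10 lay within 0.1, or 32.3%, and 24 within 0.25, or 77.4%, with a median size of 0.16. Of the 24 that listed 3 or more symbols, 23 lay within 0.1 and all 24 within 0.25, with a median size of 0.04. The excess of small differences thus belonged to the shared probesets, and single histone genes were not closer to 0 than the array as a whole. There were 30 probesets on the higher and 33 on the lower side, and the median signed difference was 0.0, against -0.03 over all. In the fit without the replicate block, the 95% interval of a single histone probeset reached a median of 0.36 to either side. Differences of that size were not resolved by that fit. Only H2bc4 had a mean difference of 2-fold or more, where 1.14% of all probesets were that much higher in positive cells and 0.0169% that much lower.

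By type, the median log2 difference was -0.13 for H1, 0.08 for H2A, 0.03 for H2B, -0.03 for H3 and -0.03 for H4. In same-numbered pairs 1 to 3, the H1 median was -0.17, -0.05 and 0.06, with an SD of 0.12. The H2A median was 0.07, -0.04 and 0.03 and the H4 median -0.09, 0.03 and 0.0, so these also lay on both sides of 0. For H2B the pairs gave 0.0, 0.07 and 0.03, with an SD of 0.04. For H3 they gave -0.05, -0.01 and -0.02, which matches the all-probeset median of -0.03 within the spread of the pairs. The median of every type changed sign when 1 or another array was left out, for example to 0.02 for H1 without positive array 1. The mean level over the probesets of a type overlapped between the groups in each case, for example 11.2 ± 0.34 in positive and 11.07 ± 0.23 in negative cells for H2B, and 8.89 ± 0.17 and 8.86 ± 0.08 for H1 (SD, n = 3).

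**Figure D1:**
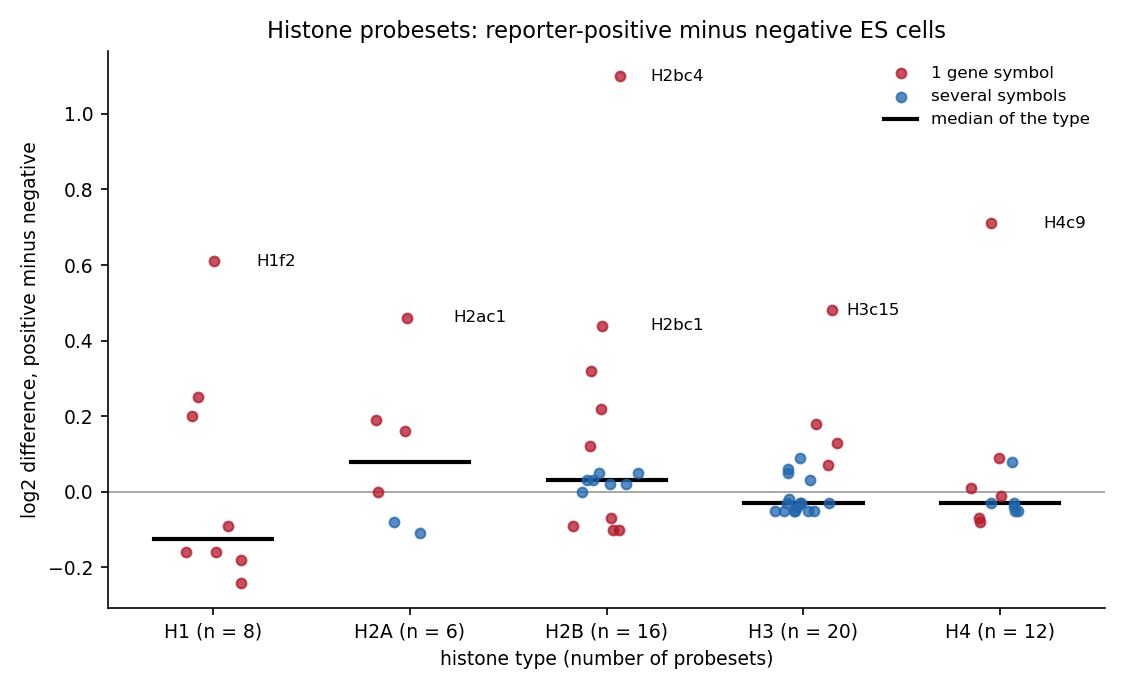
Log2 difference (positive minus negative cells, means of 3 arrays each) of each histone probeset, by type, with the median of the type as a bar and colour for probesets with 1 or several gene symbols. Most points lie within 0.1 of 0, while H2bc4 at 1.1, H4c9 at 0.71 and H1f2 at 0.61 are the highest.

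The largest differences all belonged to probesets of 1 symbol. These 31 probesets ranged from -0.24 to 1.1, with a median of 0.09. The 24 probesets that listed 3 or more symbols ranged from -0.11 to 0.05, with 6 higher and 18 lower, and their values lay between 12.83 and 14.08. Only 1.68% of all values on the arrays reached 12.83, so these probesets read near the upper end of the scale, and its part in their narrow range was not tested. Such a probeset sums mostly near-identical genes, and no single gene can be read from it. For H3, 10 probesets listed the same 12 genes, and their differences ran from -0.05 to -0.02. For H4, 5 probesets listed the same 11 genes, with differences of -0.05 to -0.03. The H2B lists of 15 and 14 genes, on 4 and 3 probesets, gave 0.0 to 0.05, and the H2A lists of 20 and 19 genes gave -0.11 and -0.08. Both of these H2A lists also held H3c4, an H3 gene.

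Among linker histones, H1f2, a somatic H1 of the cluster, measured 9.17, 10.08 and 9.06 in negative arrays 1 to 3 and 9.7, 10.75 and 9.69 in positive arrays 1 to 3. Each positive array was above its same-numbered negative array, by 0.53, 0.67 and 0.63, but the groups overlapped because both arrays of number 2 were high. The log2 difference was 0.61 (SE 0.39, 95% interval -0.32 to 1.54), or 1.53-fold, with a limma adjusted p of 0.879. When array number entered as a replicate block, the interval was 0.38 to 0.85. The limma p was then 0.00159 before and 0.489 after adjustment, the smallest adjusted p of any probeset in that fit. H1f2 thus missed the threshold in both fits, as did every other probeset. Leaving out positive array 2 gave 0.26, and leaving out negative array 2 gave 0.93. Of the other somatic H1 genes, H1f3 was 6.21, 6.6 and 6.31 in negative and 6.52, 6.65 and 6.7 in positive arrays, a difference of 0.25 (SE 0.14, adjusted p 0.875). It was a little higher in every pair, but positive array 1 lay below negative array 2. H1f5, at -0.16 (SE 0.14), was lower in every pair, with differences of -0.33, -0.11 and -0.05, and H1f1 differed by -0.09 (SE 0.17). The probeset listing H2bc6 and H1f4 was higher in every pair, by 0.02, 0.09 and 0.16. The H1 genes were not tested against each other.

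The H1 variants lay on both sides of 0. H1f7, a linker histone of spermatids, was 7.37, 7.26 and 7.42 in negative and 7.15, 7.18 and 7.18 in positive arrays. It was the only histone probeset whose positive arrays all lay below the negative ones, a difference of -0.18 (SE 0.1, 95% interval -0.42 to 0.06, adjusted p 0.875). Over the array, 6.28% of probesets had such a separation downward and 5.46% upward. H1f8, the oocyte linker histone, was 6.16, 5.7 and 5.91 in negative and 5.77, 5.3 and 5.97 in positive arrays, so it gave -0.24 (SE 0.21) with overlap. The testis gene H1f6 gave -0.16 (SE 0.23). H1f10, the variant H1X, was 10.73, 10.85 and 10.65 in negative and 10.6, 11.53 and 10.71 in positive arrays. Only positive array 2 was high, and the difference of 0.2 (SE 0.25) became -0.09 without it. H1f0 was not analysed here.

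Among H2B cluster genes, H2bc4 measured 8.24, 9.09 and 9.04 in negative and 9.01, 11.59 and 9.07 in positive arrays. Positive array 2 stood 2.52 above the next positive array, and the other positive arrays lay within the range of the negative ones. The log2 difference was 1.1 (SE 0.71, 95% interval -0.61 to 2.81), or 2.15-fold, with a limma adjusted p of 0.879. It was 0.25 without positive array 2 and 0.4 without both arrays of number 2. H2bc8 had the same shape, with 7.56, 8.15 and 8.16 in negative and 7.49, 9.05 and 8.31 in positive arrays, and its difference of 0.32 (SE 0.4) became -0.06 without positive array 2. H2bc14 and H2bc18, the lowest of the H2B cluster probesets, both gave -0.1 (SE 0.22 and 0.28), with overlap. Of the 16 H2B probesets, 11 were on the higher side, 7 of them in all 3 pairs (16.5% of all probesets), and 0 were lower in all 3 (21.0% of all). Of those 7, 5 were probesets of the shared lists of 14 or 15 genes, 2 of them with identical values, and H2bc4 and H2bc22 were the only separate genes, so the 7 are not independent.

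H4c9, a cluster gene for H4, was 7.75, 8.19 and 8.17 in negative and 7.77, 10.13 and 8.34 in positive arrays. Again positive array 2 alone was high, by 1.79 over the next. The difference of 0.71 (SE 0.58, adjusted p 0.896), or 1.63-fold, became 0.01 without that array. The other H4 genes with a probeset of their own lay close to 0, from -0.08 for H4c8 (SE 0.2) to 0.09 for H4c6 (SE 0.2). H4c3, between them at 0.01, was 10.12, 10.71 and 10.86 in negative and 10.05, 10.78 and 10.88 in positive arrays. Array 1 was the lowest in both groups.

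Of the H3 cluster genes, H3c15 was 5.91, 7.39 and 6.36 in negative and 6.64, 7.39 and 7.07 in positive arrays. It was higher in pairs 1 and 3, by 0.73 and 0.71, and at 0.0 in pair 2. The log2 difference was 0.48 (SE 0.4, adjusted p 0.896), or 1.4-fold, and it ranged from 0.16 to 0.9 when arrays were left out in turn. H3c4 was 7.81, 8.12 and 7.69 in negative and 7.58, 8.6 and 7.98 in positive arrays, a difference of 0.18 (SE 0.27) with opposite signs among the pairs. Of the H2A cluster genes with a probeset of their own, H2ac8 gave 0.19 (SE 0.25), with positive array 1 at 5.75, below negative arrays 2 and 3. H2ac4 gave 0.16 (SE 0.42), and its lowest arrays were number 1 of both groups, at 8.39 and 8.63.

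**Figure D2:**
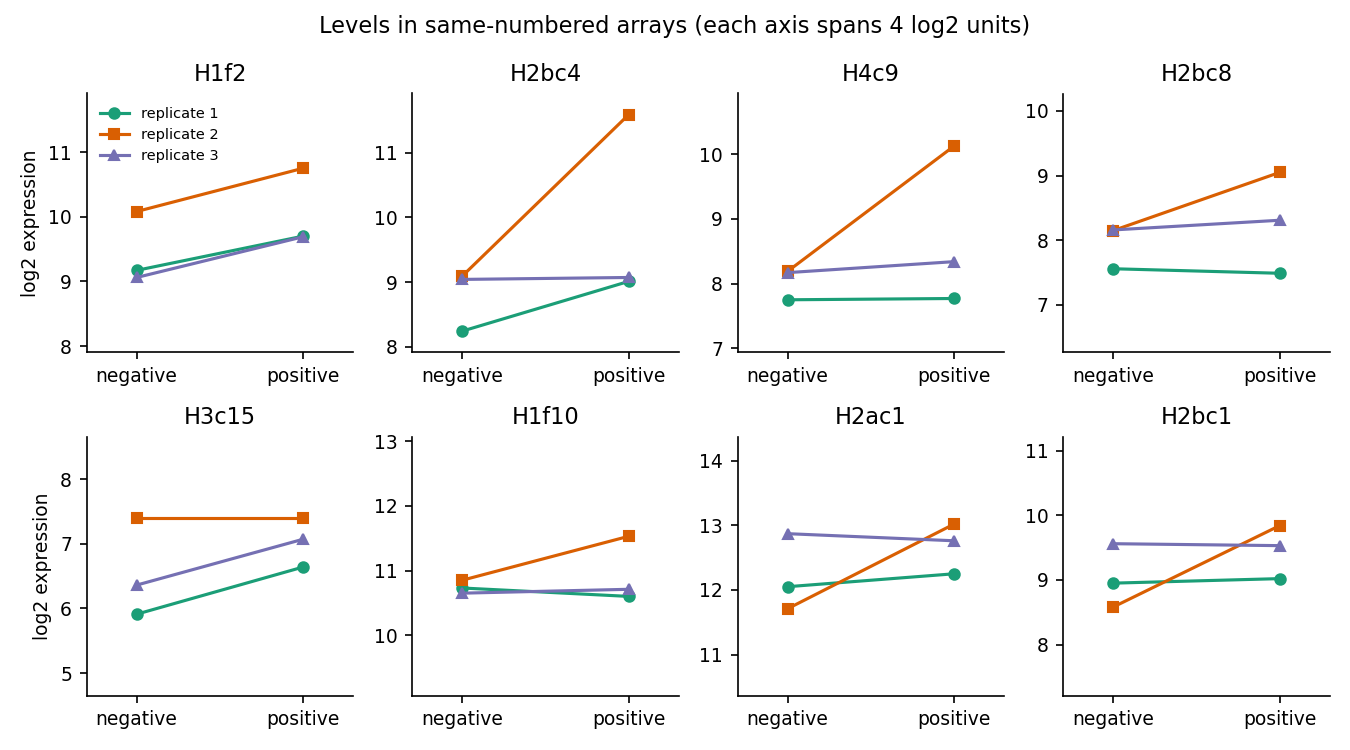
Log2 expression of 8 histone genes in negative and positive cells, with a line joining arrays of the same number; each axis spans 4 log2 units. H1f2 has nearly parallel lines, by 0.53, 0.67 and 0.63, whereas for H2bc4 and H4c9 the line of replicate 2 climbs by 2.5 and 1.94 and the other lines by at most 0.78 and 0.17.

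H2ac1 and H2bc1 encode TH2A and TH2B, variants best known from testis and oocyte, and share a promoter, most of which is printed above. H2ac1 was 12.05, 11.71 and 12.87 in negative and 12.25, 13.02 and 12.76 in positive arrays. H2bc1 was 8.95, 8.58 and 9.56 in negative and 9.02, 9.84 and 9.53 in positive arrays. In both, negative array 2 was the lowest and positive array 2 the highest of the 6. The pair differences were 0.2, 1.31 and -0.12 for H2ac1 and 0.08, 1.26 and -0.02 for H2bc1. The log2 differences were 0.46 (SE 0.34, adjusted p 0.885) and 0.44 (SE 0.31, adjusted p 0.882). Without both arrays of number 2 they were 0.04 and 0.03, so the difference of this gene pair came from that pair of arrays.

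The replacement histone H3.3 is encoded by H3f3a and H3f3b. H3f3b was read by 2 probesets, which also list Gm6485. The first was 12.68, 12.7 and 12.67 in negative and 12.73, 12.77 and 12.71 in positive arrays, and the other 12.83, 12.84 and 12.8 against 12.91, 12.94 and 12.89. They were the 2 histone probesets whose positive arrays all lay above the negative ones, by 0.06 (SE 0.09) and 0.09 (SE 0.09), with adjusted p-values of 0.96 and 0.919. After median centring of the arrays, or a second quantile normalization, only 1 histone probeset in all was left without overlap. For H3f3a, 5 probesets gave -0.03 to 0.07. With H1f7, 3 of 63 histone probesets were without overlap, or 4.76%, against 11.7% of all probesets. Without positive array 1 the count was 16, of which 15 were higher and 1 lower. No share over all probesets is given for that setting, and groups of fewer arrays overlap less easily. The 16 can therefore not be set against the 11.7%.

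Several histone variants carry symbols outside the rule, and 0 of them passed the test. H2ax, whose phosphorylated form marks DNA breaks, was 11.06, 11.27 and 11.01 in negative and 11.25, 12.25 and 11.43 in positive arrays. It was higher in each pair, by 0.19, 0.98 and 0.43, although positive array 1 lay just under negative array 2. The difference was 0.53 (SE 0.27, adjusted p 0.875), or 1.45-fold. Macroh2a1, a variant associated with silent chromatin, was 10.94, 11.28 and 10.99 in negative and 10.68, 10.98 and 10.55 in positive arrays. It was lower in each pair, with differences of -0.26, -0.3 and -0.44, and gave -0.33 (SE 0.16, adjusted p 0.875). Its relative Macroh2a2 gave -0.45 (SE 0.31), with -0.15, -0.79 and -0.42 in the pairs. With the replicate block the unadjusted p was 0.0372 for H2ax, 0.0183 for Macroh2a1 and 0.036 for Macroh2a2, and each had an adjusted p of 0.489. The H2A.Z genes stayed near 0, at -0.03 and -0.02 for H2az1 and 0.07 for H2az2. H2aj, H2ab1, H2bu2, H2bu1-ps and H4f16 lay between 0.0 and 0.04, and H2aw was at -0.14.

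**Figure D3:**
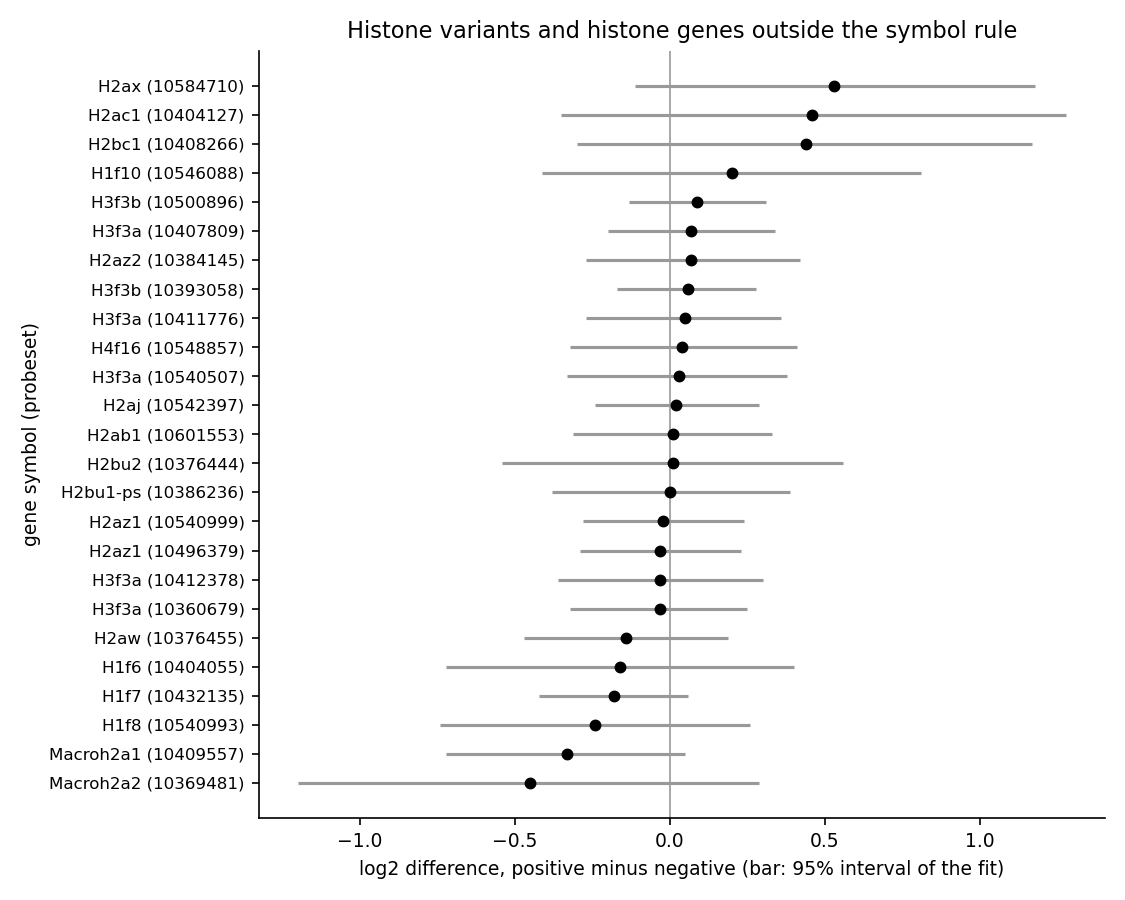
Log2 difference (positive minus negative cells) of the variant histone probesets and of the histone genes outside the symbol rule, with the 95% interval of the limma fit over 3 and 3 arrays. Every interval of this fit, which has no replicate block, crosses 0, with H2ax at 0.53 and Macroh2a2 at -0.45 as the ends of the range.

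The levels of the cluster probesets followed the array number. In 50 of 63, or 79.4%, array 1 was the lowest of its group in both groups, against 12.5% of all probesets. This held for 45 of the 50 cluster probesets and for 5 of the 13 variant probesets, which were all 5 probesets of H3f3a. By type it held for 5 of 6 H2A, 14 of 16 H2B, 17 of 20 H3 and 11 of 12 H4 probesets, but for 2 of 8 H1 probesets. Since many probesets share sequences, the count was repeated with 1 probeset for each of the 41 symbol lists and gave 29, or 70.7%. Among probesets with 1 symbol it was 20 of 31, or 64.5%. The exceptions among cluster probesets were H1f2, H1f5, H2bc21, H3c4 and H4c14.

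The cluster probesets lay lower in array 1 than in the mean of arrays 2 and 3 by a median log2 difference of -0.33 in positive cells and -0.26 in negative cells. All 50 were below 0 in positive cells, with a range of -1.47 to -0.1, and 49 of 50 in negative cells, with a range of -1.14 to 0.11. Over all probesets the same medians were 0.02 and 0.03, with 47.1% and 45.2% below 0. The range over the 3 number means was larger than the size of the reporter difference in 60 of 63 histone probesets, or 95.2%, against 79.3% of all. In limma's F test of the array number, 0 histone probesets passed after adjustment (smallest adjusted p 0.118; background 0.0%), and 23, or 36.5%, were under an unadjusted 0.05, against 17.8% of all. The count of 50 was 52 after median centring and 49 after a second quantile normalization. What the numbers stand for is not given by the labels, and this pattern was looked for after the values were seen.

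**Figure D4:**
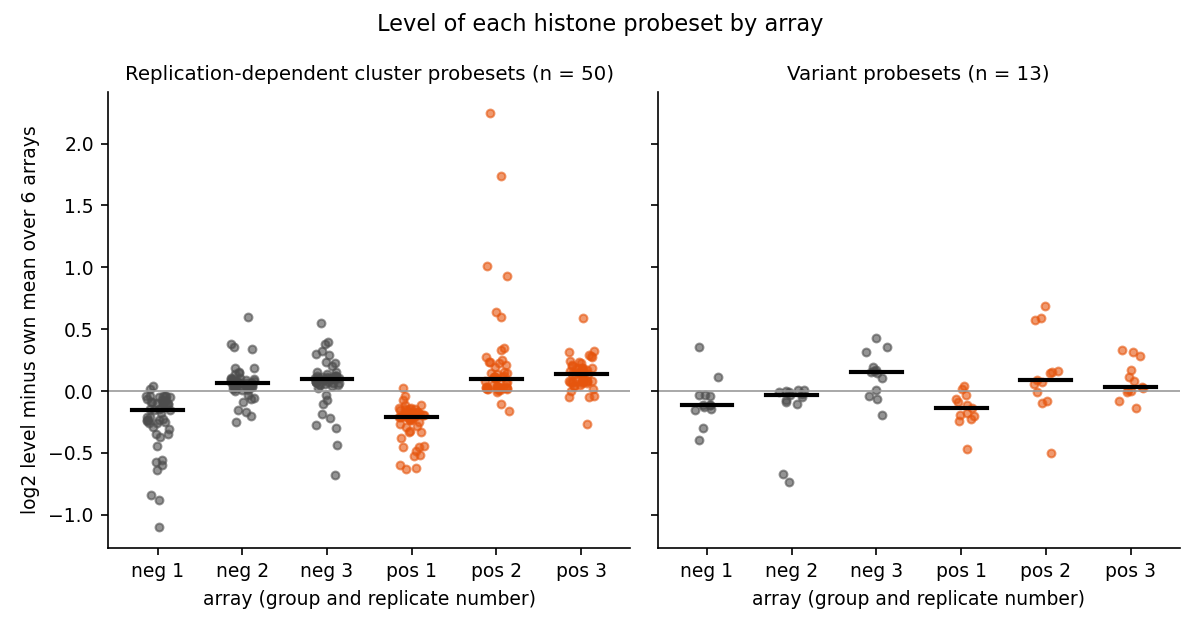
Log2 level of each histone probeset minus its own mean over the 6 arrays, for 50 replication-dependent cluster probesets and 13 variant probesets, with the median of each array as a bar. The cluster points sit mostly below 0 in array 1 of both groups, and the points above 1.0 in positive array 2 include H2bc4 and H4c9.

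Positive array 2 was the highest of all 6 arrays in 20 histone probesets, or 31.7%, against 16.7% of all probesets. In 6 of them, or 9.52%, it exceeded the next positive array by at least 0.5, against 6.94% of all. These were H2bc4, H4c9, H1f2, H1f10, H2bc8 and H3c4, with gaps of 2.52, 1.79, 1.04, 0.82, 0.74 and 0.62. The same array had the highest mean of the genes of the 2-cell-like state, at 10.99, and of the germ cell markers, at 9.08; their part in these values was not tested. The sign of the pair difference was the same in all 3 pairs for 17 histone probesets upward and 18 downward, or 55.6%. Over all probesets this share was 37.5%, with 16.5% upward and 21.0% downward. With 1 probeset per symbol list this was 12 and 7, or 46.3%.

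Genes that serve histone supply were followed as lists, and 0 genes of any of them passed limma's test over all probesets (smallest adjusted p of any probeset 0.875). For transcription and 3′ end processing of histone mRNA, 15 of 15 genes were measured, 5 higher and 10 lower, with a median log2 difference of -0.03, as over all probesets. The array means were 10.23, 10.26 and 10.29 in negative and 10.21, 10.15 and 10.28 in positive cells, which overlap. Slbp, which binds the stem-loop of histone mRNA, was 10.7, 10.81 and 10.67 in negative and 10.48, 10.66 and 10.49 in positive arrays. No positive array reached the lowest negative one, and the difference of -0.18 (SE 0.11) equalled that of Cstf2, a cleavage factor, at -0.18 (SE 0.13). Ncbp1, of the cap-binding complex, was the highest at 0.11 (SE 0.12).

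Of the histone chaperones and exchange factors, 18 of 20 were measured, 10 higher and 8 lower, with a median of 0.04. The lowest was Chaf1b, at -0.25 (SE 0.14), a subunit of the CAF-1 complex that deposits H3 and H4 at replication forks. Its pair differences were -0.03, -0.61 and -0.12. The highest was Ep400, at 0.22 (SE 0.14), the motor of a complex that exchanges histone variants. Chaf1b and Nap1l4, at -0.15, were lower without overlap, so 2 of the 18 were, against 6.28% of all probesets, and 0 were higher without overlap. Of 20 S phase genes, 4 were higher and 16 lower, where 55.8% of all probesets were lower, with a median of -0.09 and pair medians of 0.0, -0.23 and -0.03. Their array means were 11.19, 11.31 and 11.21 in negative and 11.18, 11.12 and 11.16 in positive arrays, so each positive mean was below each negative one, by little. Cdc6, which loads the replicative helicase, was 9.03, 9.16 and 8.85 in negative and 8.65, 8.49 and 8.7 in positive arrays, without overlap. Mcm7 at -0.14 and Rrm2 at -0.16 were also lower without overlap, so 3 of the 20 were, against 6.28% of all probesets. The Cdc6 difference of -0.4 (SE 0.13) was the lowest of the list, and the highest value, 0.06, was shared by Pcna, Ccne2 and Tyms. The cluster histone probesets, whose genes are transcribed in the same phase, had a median of -0.02, with 22 higher and 28 lower. The 2 medians were not tested against each other.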

How the data were processed

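The values are log2 expression values deposited by the authors for 6 arrays, made with RMA in Affymetrix Expression Console, per the submitters' processing notes. Of versions, build and annotation file, none is given in the sources used here. RMA corrects background, normalizes quantiles and summarises probesets, which removes differences in total RNA and compresses very dim and very bright probesets. Each array had 100 ng of RNA, array medians were 6.95 to 7.04 and arrays correlated at 0.961 to 0.992. Precision is limited by the number of arrays. The platform annotation gave 21789 probesets 1 symbol, 1621 several and 12146 none.

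All 35556 probesets were fitted with limma 3.58.1 in R 4.3.3 (lmFit, eBayes, two-sided, Benjamini-Hochberg, threshold 0.05), which was tested on simulated data. Same-numbered arrays deviated together, with correlations of 0.41, 0.389 and 0.18 over all probesets for numbers 1 to 3, so the numbers were taken as pairs and the replicate block was run as an alternative. Levels of different probesets were not compared. The rule named, per type, up to 2 cluster probesets at either end of the differences, all variants, and the extremes of each gene list; older symbols were matched through RefSeq synonyms. The median-of-pairs values, H4c3 and H2bc21 were added after their values were seen. The members and lists were chosen with earlier results of these data known. Alternatives were the block, array weights, leaving out arrays, dim probesets left out, other scalings and fewer members.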

Additional observations from a re-analysis of the deposited data

How the results depend on the processing

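No histone probeset passed limma's adjusted threshold under any alternative run, the smallest adjusted p of a named probeset being 0.263. With 3 arrays a group and only the fit's own spread, small differences are not resolved. The count under an unadjusted 0.05 was 0. It was 0 to 3 when single arrays were left out, 3 without both arrays of replicate 2, 3 with array weights and 1 with the replicate block for the pairing. The count without overlap was 3. It was 3 to 16 when single arrays were left out, with 16 without positive array 1, 15 higher and 1 lower. It was 6 without both arrays of replicate 2, 1 after median centring, 1 after a second quantile normalization and 1 among probesets with 1 symbol. For both kinds of count, shares over all probesets are not given under the alternatives, apart from 10.1% unadjusted with the replicate block. Fewer arrays overlap less easily, so a change in these counts is not read as a result about histones. The count lowest in array 1 of both groups, 50, was 20 of the 31 probesets with 1 symbol and 29 with 1 probeset per symbol list, since fewer probesets were counted. Leaving out single arrays gave type medians of -0.15 to 0.02 for H1, -0.11 to 0.23 for H2A, -0.08 to 0.16 for H2B, -0.09 to 0.04 for H3 and -0.08 to 0.04 for H4. Array weights gave -0.06 for H2A, -0.07 for H2B, -0.1 for H3 and -0.09 for H4, and probesets with 1 symbol gave 0.17, 0.12 and 0.15 for H2A, H2B and H3; the cause was not tested. Of 33 named histone probesets under 12 alternatives each, 12 kept their sign throughout, among them H1f2, H1f3, H1f5, H1f7, H1f8, H2bc4, H3c15, H4c9 and both H3f3b probesets. Among those that did not, leaving out single arrays gave -0.19 to 0.06 for H1f1, -0.37 to 0.03 for H1f6, -0.09 to 0.37 for H1f10, -0.22 to 0.49 for H2ac4, -0.06 to 0.36 for H2ac8, -0.14 to 0.01 for the H2A list of 19, -0.06 to 0.72 for H2bc8, -0.24 to 0.1 for H2bc14, -0.27 to 0.15 for H2bc18, -0.1 to 0.41 for H3c4, -0.05 to 0.28 for H4c6, -0.2 to 0.13 for H4c8 and -0.21 to 0.06 for H4c14. The same gave -0.11 to 0.03 and -0.12 to 0.03 for H3 lists of 12 genes, and -0.1 to 0.05, -0.11 to 0.05, -0.01 to 0.13 and -0.05 to 0.14 for 4 H3f3a probesets. With array weights the value turned to -0.07 for H2bc8, -0.05 for H2ac4, -0.07 for H2ac1, -0.04 for H4c6, -0.03 for H2bc1 and -0.08 and -0.13 for H3f3a probesets. Without both arrays of replicate 2 it turned to -0.01 and -0.06 for these H3f3a probesets and -0.04 for H1f10.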
